A study of Brugia malayi with 68 samples.

Results

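The subject is a set of 3 libraries of adult female Brugia malayi, a filarial nematode, taken from gerbils 1 day after treatment in the third of 3 rounds of one experiment. They are the replicate 3 libraries of the diethylcarbamazine, ivermectin and control groups, and each is set against the replicate 2 library of its own treatment, so that 6 of the 68 libraries of the series enter the comparison. The replicate 3 and replicate 2 libraries of the albendazole group serve as a check and do not enter the main fit of the day 1 female comparison. The replicate numbers mark 3 biological replicates, each of which held all treatments, per the series' design text, and are called rounds here. Gerbils had been infected in the peritoneal cavity and were given diethylcarbamazine at 6 mg/kg, ivermectin at 0.2 mg/kg or albendazole at 1 mg/kg. Control animals are labelled as given DMSO, but the protocol calls them untreated. The labels do not say how many worms or gerbils went into a library, nor on which date or run a round was processed.

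An adult female filaria is largely reproductive tissue. Paired ovaries and uteri run through most of the body, and the uteri hold developing embryos and microfilariae, the larvae that the female releases. A library from whole females therefore mixes RNA of the body wall and gut, of the germ line, and of embryos at all stages, and in such bulk samples fewer cells of a type and less RNA per cell cannot be told apart. The drugs act on different targets. Ivermectin opens glutamate-gated chloride channels, albendazole binds worm tubulin, and diethylcarbamazine is an antifilarial drug long used against the larvae.

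The 3 round 3 libraries were chosen because their own counts set them apart, so what follows about them and round 2 is description and not a test. In a principal component analysis of the 24 female libraries, whose first component held 47.4% of their variance, they scored on that component 71.3 (control), 90.9 (diethylcarbamazine) and 71.0 (ivermectin). The next highest female library, control replicate 1 of day 1, scored 1.1, and albendazole replicate 3 scored -9.5. The round 2 libraries scored -27 (control), -14.1 (diethylcarbamazine) and -15 (ivermectin). The control library of round 2 was thus the lowest of the 24, at the opposite end of the component. Total counts were 10893655 to 22238217 in the 3 round 3 libraries and 8170895 to 22894844 in the 3 round 2 libraries, and 10804 to 11088 and 10870 to 11088 of 11590 genes had at least 1 count. Depth and gene detection thus overlapped, and 0 genes had no count in one round and at least 10 counts in every library of the other. The 100 genes with most counts took 19.7% to 20.8% of all counts in round 3, against 12.96% to 13.9% in round 2.

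Round 3 females differed from round 2 females in most genes, in both directions and in much the same way under all 3 treatments. Of 9911 genes tested, edgeR's quasi-likelihood test with treatment as a block called 3242 higher in round 3 (32.7%) and 3599 lower (36.3%), at an adjusted p of 0.05. At 2-fold or more, 1658 genes were higher (16.7%) and 1301 lower (13.1%), and at 4-fold or more 398 were higher (4.02%) and 58 lower (0.585%). All 3 round 3 libraries lay above all 3 round 2 libraries in 3159 genes (31.9%) and below them in 3787 (38.2%). These shares are themselves the background for the counts of gene groups below. The split depends on how libraries are scaled. With library totals alone, 1522 genes were higher and 6544 lower, so that 18.9% of calls were higher, against 47.4% with the trimmed mean of M-values (TMM) scaling. The median log2 difference over all genes was then -0.80, against -0.08, and directions below are relative to TMM scaling.

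The excess was concentrated in genes that took a large part of the counts. The 1658 genes at least 2-fold higher took 55.0% of all counts in the control round 3 library, 58.2% with diethylcarbamazine and 53.9% with ivermectin. In round 2 the same genes took 24.7%, 28.1% and 27.5%, in the same order of treatments. The 1301 genes at least 2-fold lower took 2.31%, 1.73% and 2.21% of counts in round 3, against 9.25%, 7.81% and 8% in round 2. By counts, which are not corrected for gene length, 86 genes were among the 100 highest in all 3 round 3 libraries and 82 in all 3 round 2 libraries, and 40 were in both lists. Of the genes in the round 3 list, 33 were in none of the 3 round 2 lists, and all 33 were in the 2-fold higher group. The reverse list, in all 3 round 2 lists and in none of round 3, had 37 genes, of which 2 were in the 2-fold lower group.

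**Figure D1:**
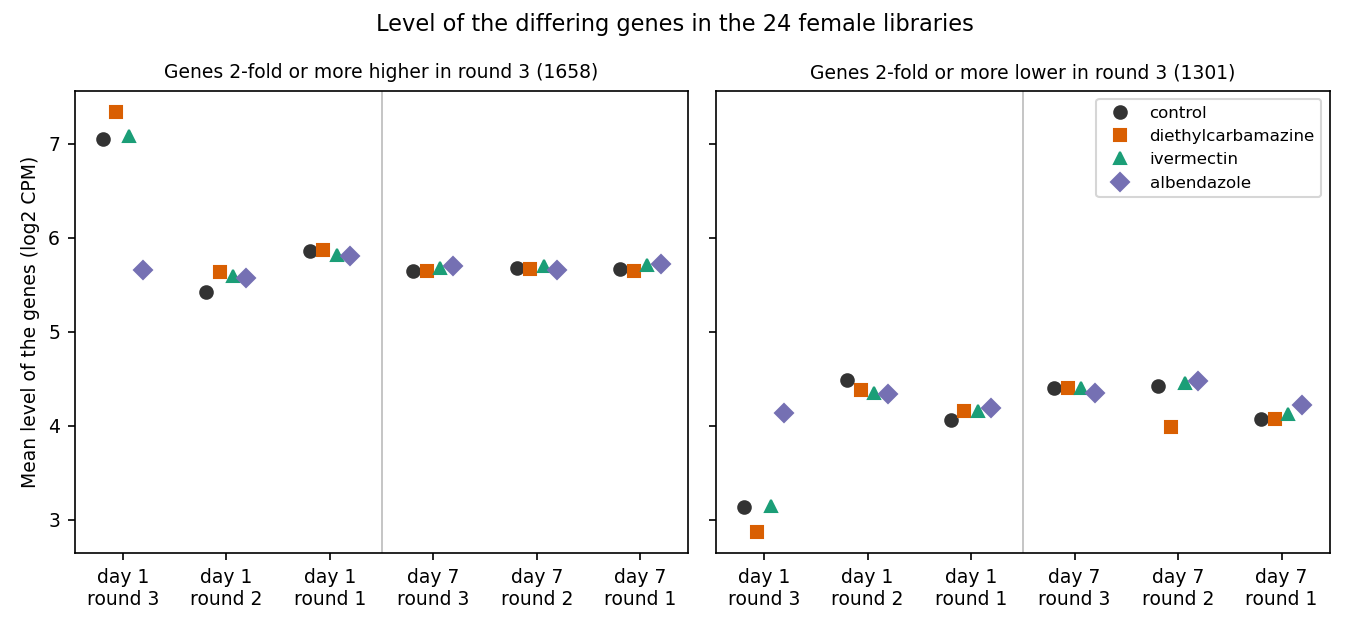
Mean level (log2 CPM, counts scaled to library depth) of the 1658 genes at least 2-fold higher and the 1301 genes at least 2-fold lower in round 3 than round 2, in each of the 24 female libraries by day and round, with 1 point per library and treatments by colour and shape. The genes were chosen on the round 3 and round 2 libraries of day 1 other than albendazole. Those 3 round 3 libraries stand at 7.05 to 7.34 and 2.87 to 3.15, and the other 21 female libraries at 5.42 to 5.87 and 3.98 to 4.49.

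The 3 treatment pairs gave nearly the same differences gene by gene. The log2 differences of the control and diethylcarbamazine pairs had a Pearson correlation of 0.875 across 9911 genes, those of the control and ivermectin pairs 0.875, and those of the diethylcarbamazine and ivermectin pairs 0.891. The pairs hold no library in common but share genes of like abundance, and genes are not independent, so these values are descriptive. The sign was the same in all 3 pairs for 7973 genes (80.4%), of which 3636 were higher and 4337 lower. The difference was at least 2-fold in all 3 pairs for 1172 higher and 677 lower genes. The pairs differed in size. The standard deviation of the log2 differences over genes was 1.08 in the diethylcarbamazine pair, 1.02 in the control pair and 0.905 in the ivermectin pair.

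The albendazole pair differed far less, and more in the lower genes than in the higher. Its log2 differences had a standard deviation of 0.407, and 2.89% of genes differed 2-fold or more, against 32.2%, 36.2% and 25.9% in the control, diethylcarbamazine and ivermectin pairs. Of the 1658 higher genes, 937 (56.5%) were above their round 2 value in the albendazole pair, with a median log2 difference of 0.06, beside 50.2% of all genes. Of the 1301 lower genes, 957 (73.6%) were below, with a median of -0.21, beside 49.8% of all genes. Across 9911 genes its differences had Pearson correlations of 0.105, 0.259 and 0.204 with those of the control, diethylcarbamazine and ivermectin pairs. One library stands on each side of this pair, so it has no replicate check.

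The identifiers in the counts table are not paired with gene names in the files, and none of them (0 of 11590) occurs in the reference table of 11688 genes. Roles can therefore not be given to single genes, and 2 higher and 2 lower genes, those with the smallest p among the genes at least 2-fold different whose libraries do not overlap (1631 higher and 1272 lower), are given by identifier. Levels are in CPM after TMM scaling.

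WBGene00223952 stood at 242, 318 and 209 CPM in the control, diethylcarbamazine and ivermectin libraries of round 3, and at 21.2, 30.2 and 31.8 CPM in round 2. It averaged 256 ± 55.9 CPM in round 3 and 27.7 ± 5.70 in round 2 (SD, n = 3 each), a log2 difference of 3.22 (SE 0.14). The other 21 female libraries, albendazole round 3 among them at 32.2 CPM, held it at 21.2 to 45.5 CPM, so the 3 libraries lay far above all others. WBGene00269121 showed the same pattern, at 665, 644 and 538 CPM in round 3 and 40.0, 64.2 and 71.8 CPM in round 2, a log2 difference of 3.44 (SE 0.16). In the other 21 female libraries it ran from 40.0 to 99.4 CPM. Neither gene belonged to a stage class as defined below.

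WBGene00220555 was the lower gene with the smallest p. It stood at 54.6, 41.8 and 67.6 CPM in the control, diethylcarbamazine and ivermectin libraries of round 3 and at 193, 288 and 288 CPM in round 2, a log2 difference of -2.20 (SE 0.14). This gene is shared by both adult sexes and nearly absent from larvae, with 87.3 to 358 CPM in control day 7 females, 509 to 716 in control day 7 males and 2.64 to 2.65 in control day 7 microfilariae. It also varied between the rounds that do not stand apart, since round 1 of the same 3 treatments averaged 89.8 ± 20.9 CPM (SD, n = 3), between the other rounds, and against round 1 its log2 difference was -0.69. WBGene00230923 belongs to the female class. It had 57.7, 46.8 and 59.1 CPM in round 3 and 223, 264 and 219 CPM in round 2, a log2 difference of -2.08 (SE 0.14). Every one of the other 21 female libraries held 166 to 275 CPM of it, and the 2 groups of libraries did not overlap.

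**Figure D2:**
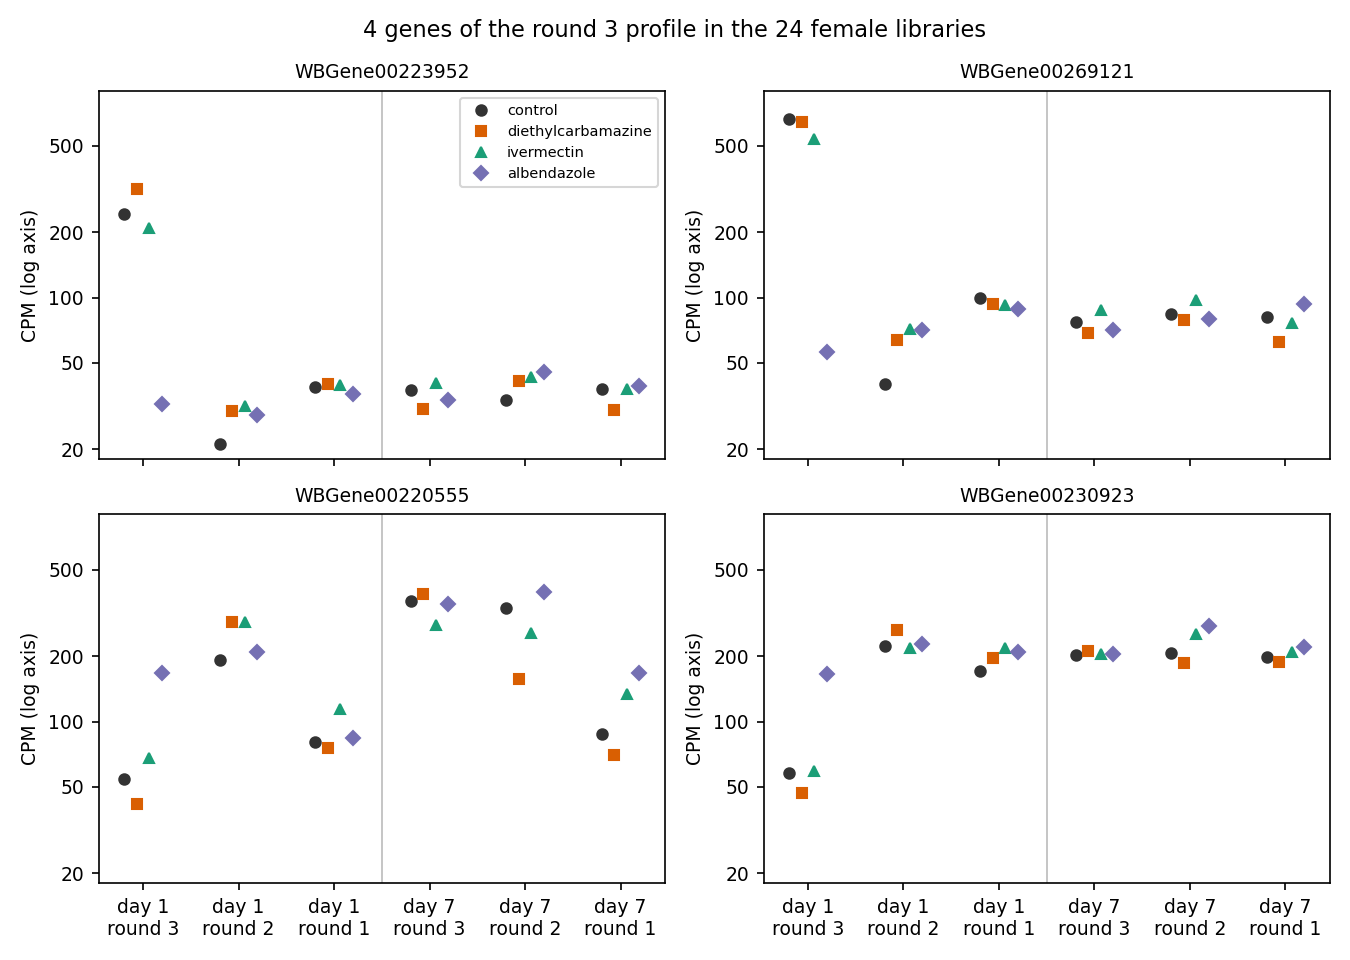
Level (CPM, log axis) of 2 genes higher and 2 genes lower in round 3 than round 2 of day 1 females, in all 24 female libraries by day and round, with 1 point per library. WBGene00223952 stands at 209 to 318 CPM in the 3 libraries and at most at 45.5 in any other, while WBGene00220555 is also low in round 1, at 89.8 ± 20.9 CPM (SD, n = 3).

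The median difference varied with how abundant a gene is in females, and was highest for the most abundant genes. Genes were put in 10 bins of equal size by their level in control day 7 females, which are in no part of the comparison. In the highest bin (above 7.69 log2 CPM, 991 genes) the median log2 difference between round 3 and round 2 was 0.65 in the control pair, 0.79 with diethylcarbamazine and 0.63 with ivermectin, and -0.00 with albendazole. In the fourth bin (4.14 to 5 log2 CPM) it was -0.48, -0.44 and -0.26, and -0.02 with albendazole. In the lowest bin it was -0.21, -0.12 and -0.03. The course was thus not even: the middle of the range was lowest and the top alone was well above zero. Of the 991 genes in the highest bin, 401 (40.5%) were at least 2-fold higher and 39 (3.94%) at least 2-fold lower, against 85 (8.58%) and 206 (20.8%) in the fourth. In the lowest bin 18.2% were at least 2-fold higher and 16.7% at least 2-fold lower, so large differences were not confined to abundant genes. Abundance accounted for a small part of the spread, with a Pearson correlation of 0.177 and a Spearman correlation of 0.226 across 9911 genes. Every bin held genes of both directions at 2-fold or more, from 8.58% to 40.5% higher and from 3.94% to 20.8% lower.

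**Figure D3:**
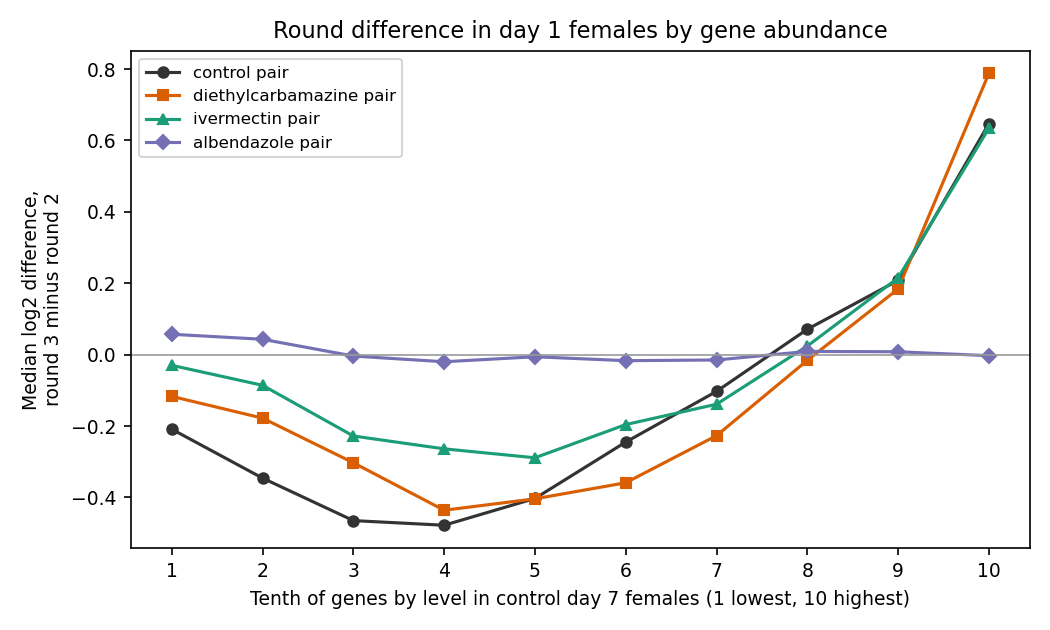
Median log2 difference between round 3 and round 2 in day 1 females for 10 bins of genes ordered by their level in control day 7 females, with 1 line per treatment pair. The highest bin reaches 0.63 to 0.79 in the diethylcarbamazine, ivermectin and control pairs, and the albendazole pair stays between -0.02 and 0.06.

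Stage classes show which worms use the differing genes. They were taken from the 8 control libraries of day 7 alone, so that no library of the comparison entered them. A gene belongs to the female, male or microfilaria class when it was at least 4-fold higher in that stage than in each of the other stages (edgeR adjusted p under 0.05). It belongs to a shared class when it was at least 4-fold higher in each of a pair of stages than in the remaining one. Most differing genes belonged to no class: 1306 of the 1658 genes at least 2-fold higher (78.8%) and 816 of the 1301 at least 2-fold lower (62.7%), beside 77.0% of all genes tested. The higher genes had medians of 6.45, 6.16 and 6.56 log2 CPM in control day 7 females, males and microfilariae, and the lower genes 4.65, 4.82 and 3.43. For all genes tested these medians were 5.62, 5.67 and 5.39. Higher genes were thus abundant in all stages, and lower genes were scarcer, most of all in larvae.

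Classes of adult worms stood lower in round 3. Genes of both adult sexes that are low in microfilariae had a median log2 difference of -0.61 over 513 genes (control pair -0.64, diethylcarbamazine pair -0.62, ivermectin pair -0.56), beside -0.08 over all genes. Of these genes 157 were at least 2-fold lower (30.6%, beside 13.1% of all genes) and 46 at least 2-fold higher (8.97%, beside 16.7%). The female class, genes far higher in females than in males and larvae, had a median of -0.45 over 465 genes (-0.40, -0.41 and -0.49 in the same order of pairs). It had 134 members at least 2-fold lower (28.8%) and 69 at least 2-fold higher (14.8%). Its quartiles were -1.10 and 0.46, so that members went both ways. The male class, which female libraries hold at low level, had a median of -0.37 over 726 genes (-0.42, -0.40 and -0.30), with 148 members lower (20.4%) and 63 higher (8.68%) at 2-fold. In the albendazole pair the medians of these 3 classes were -0.04, 0.04 and -0.07. Round 1 against round 2, which shares the round 2 libraries, gave medians of -0.24, -0.27 and -0.06 for the genes of both adults in the control, diethylcarbamazine and ivermectin pairs of day 1 females. In microfilariae of day 1, round 3 against round 2, the medians were -0.36 for both adults, -0.26 for the female class, -0.52 for the male class and 0.27 for the microfilaria class.

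Classes that include the larvae stood higher, but not evenly over the pairs. The microfilaria class had a median of 0.37 over 185 genes, with 52 at least 2-fold higher (28.1%) and 12 at least 2-fold lower (6.49%). By pair the median was -0.07 in the control pair, 0.32 with diethylcarbamazine and 0.62 with ivermectin. Genes shared by females and microfilariae had a median of 0.31 over 288 genes (0.09, 0.52 and 0.27), with 86 members higher (29.9%) and 26 lower (9.03%) at 2-fold. The 48 genes shared by males and microfilariae had a median of 0.23 (-0.26, 0.15 and 0.41). In the albendazole pair the 3 medians were -0.11, 0.19 and -0.15. Without the ivermectin pair the microfilaria class had a median of 0.19 and the genes of males and microfilariae -0.02. Against round 1 the genes of females and microfilariae had a median of 0.14 and those of males and microfilariae 0.13. Over the whole microfilaria class, the control pair alone shows no clear excess over the median of all genes, -0.11 in that pair. With library totals alone all these medians turned below zero, as did that of all genes: the microfilaria class stood at -0.35, still 0.45 above all genes, and the adult class at -1.33, 0.53 below.

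**Figure D4:**
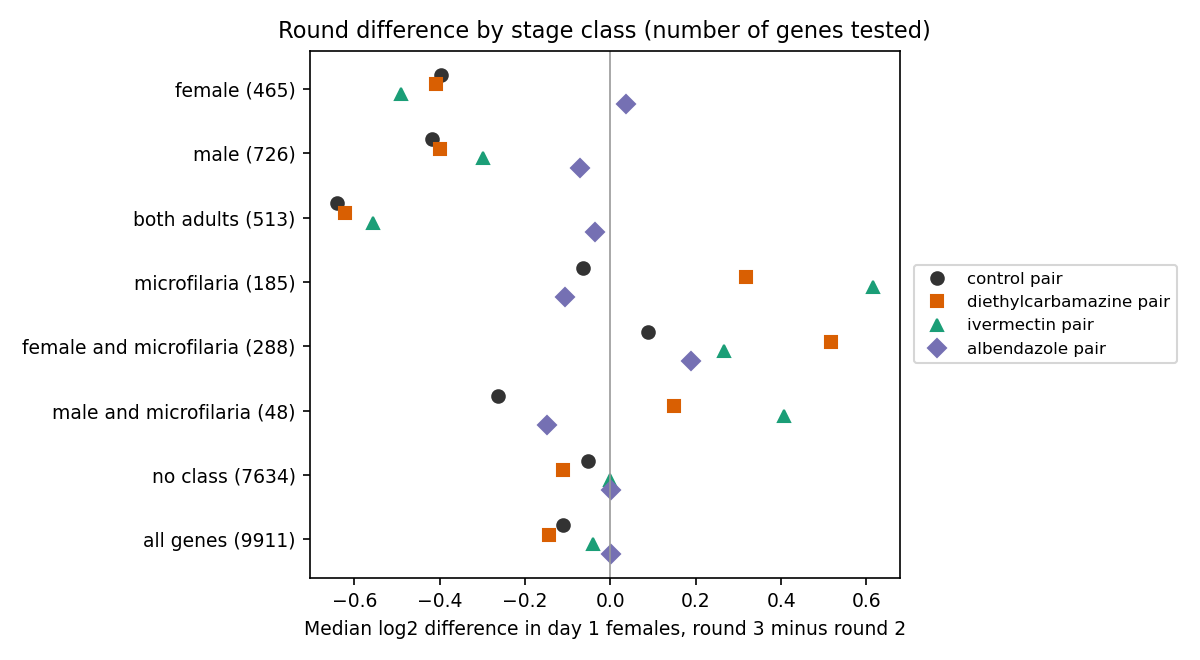
Median log2 difference between round 3 and round 2 in day 1 females for 6 stage classes, genes in no class and all genes tested, with 1 point per treatment pair and the number of genes in brackets. The adult classes lie at -0.30 to -0.64 in the diethylcarbamazine, ivermectin and control pairs, and the microfilaria class at -0.07 in the control pair and 0.62 in the ivermectin pair.

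Genes were also compared at like abundance, in 3 bins of equal size by the level in control day 7 females. The class differences were seen there for genes of both adults and the microfilaria class. For the female class they were not seen in every pair, and for the male class not in every bin. In the highest bin, the median was -0.27 for genes of both adults (102 genes) and -0.29 for the female class (146), against 0.26 for all 3304 genes of that bin. The microfilaria class had a median of 1.19 there, over 13 genes, and the male class 0.35 over 15. In the middle bin, the medians were -0.74 for genes of both adults (182 genes), -0.41 for the female class (149) and 0.53 for the microfilaria class (26), against -0.30 for all. In the lowest bin they were -0.65, -0.53 and 0.30, against -0.24 for all, but in that bin the microfilaria class stood at -0.26 in the control pair and 0.56 in the ivermectin pair. All genes of the lowest bin stood at -0.36 in the control pair. In the middle and highest bins the microfilaria class stood at 0.35 and 1.09 in the control pair, against -0.30 and 0.26 for all genes. The female class of the middle bin stood at -0.255 (control), -0.403 (diethylcarbamazine) and -0.514 (ivermectin), against -0.302, -0.375 and -0.237 for all genes. There it was clearly below all genes only in the ivermectin pair, and not below in the control pair. In the lowest and highest bins the female class was below all genes in each pair. The male class stood at -0.36 in the middle bin (55 genes), near all genes, and at -0.38 in the lowest (656 genes). In the highest bin it was not below all genes. These bins were added after the data were seen.

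Genes restricted to other stages stood low in every female library, which their choice largely fixes. By definition control day 7 females hold them at least 16-fold below the stage they mark. The sums therefore do not measure how much RNA of males or larvae a library held. The genes at least 16-fold higher in males than in both other stages (711 genes) summed to 1.20%, 1.18% and 1.17% of their control male level in the control, diethylcarbamazine and ivermectin libraries of round 3, against 1.12%, 1.10% and 1.07% in round 2. The 57 genes with such a bias to microfilariae summed to 1.20%, 0.863% and 2.15% of the control larval level in round 3, against 0.760%, 0.551% and 0.733% in round 2. Among the other 21 female libraries that value ran from 0.490% to 1.12%, so the ivermectin and control libraries of round 3 lay above them and the diethylcarbamazine library within. The 159 female-restricted genes summed to 104%, 114% and 87.5% of the control day 7 female level in round 3, and to 117%, 103% and 104% in round 2. How far the share of embryos and larvae in the worms bears on the round difference was not tested.

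Rounds also differed where no library stands apart, but by less. Round 1 against round 2 of the same 3 treatments gave 922 genes higher (9.11%) and 612 lower (6.05%) of 10119 by the same edgeR test in day 1 females, and 271 of them at 2-fold or more (2.68%). In day 7 females round 1 against round 2 gave 1365 higher (13.9%) and 1052 lower (10.7%) of 9810, with 150 at 2-fold or more (1.53%). These comparisons were added after the data were seen, and the day 1 one shares its round 2 libraries with the comparison above. The mean level of the 1658 higher genes minus that of the 1301 lower genes was 3.91, 4.47 and 3.93 on the log2 scale in the control, diethylcarbamazine and ivermectin libraries of round 3, and 0.93, 1.25 and 1.24 in round 2. In round 1 it was 1.80, 1.71 and 1.66. In day 7 females it was 1.24 to 1.36 in round 3, 1.18 to 1.68 in round 2 and 1.51 to 1.59 in round 1. Day 7 females of round 3 were thus at the level of ordinary females.

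Females of day 7 gave 0 genes that differed between round 3 and round 2 by edgeR's quasi-likelihood test, over the same 3 treatments and 10047 genes (0%). At an unadjusted p under 0.05 there were 389 genes, where 502 would be expected by chance, and DESeq2 called 0 higher and 10 lower. Of the 1658 genes higher in day 1 females 1631 were tested, with a median log2 difference of -0.04, and of the 1301 lower genes all were tested, with a median of 0.05. By pair the lower genes had medians of 0.01 (control), 0.34 (diethylcarbamazine) and -0.09 (ivermectin), and -0.15 in the albendazole pair. In the diethylcarbamazine pair 190 of the 1301 were lower, while 5885 of all 10047 genes tested were higher. The round 2 library of that pair had the fewest counts of the series (2112032). The 4 genes given above had log2 differences of -0.10 (SE 0.12), -0.15 (SE 0.08), 0.46 (SE 0.18) and -0.06 (SE 0.09) in the order they were introduced, each with an edgeR adjusted p of 1. Without the ivermectin pair edgeR called 63 genes higher and 25 lower in these day 7 females.

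In males of day 1 the genes that set round 3 females apart lay in the same direction between the same rounds, with much smaller differences and no single gene called. Their libraries had no part in the choice of the female libraries. By edgeR's quasi-likelihood test 0 of 10104 genes differed (0%), while 1182 had an unadjusted p under 0.05, where 505 would be expected, and DESeq2 called 12 higher and 52 lower. The genes at least 2-fold higher in round 3 females had a median log2 difference of 0.16 in males, with 1134 of the 1555 tested higher (72.9%, beside 46.6% of all genes). The genes at least 2-fold lower in females had a median of -0.33, with 1065 of 1233 lower (86.4%, beside 53.4% of all genes). The higher genes are the more abundant group, and the male difference also varied with abundance. In the bins by level in control day 7 females, its median was -0.13 in the lowest and 0.09 in the highest. The male shares were not compared with genes of like abundance. By pair the medians of the higher genes were 0.16 (control), 0.07 (diethylcarbamazine) and 0.26 (ivermectin), and those of the lower genes -0.29, -0.11 and -0.51. The albendazole males had medians of 0.17 and -0.41, where the albendazole females had 0.06 and -0.21. Across 9514 genes the male and female differences had a Pearson correlation of 0.429, a description, since genes are not independent.

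One male library of this comparison stood apart in genes of females. The 159 female-restricted genes summed to 14.1% of the female level in the ivermectin day 1 male library of round 2, against 1.17% and 1.31% in the control and diethylcarbamazine libraries of round 2 and 1.32% to 1.40% in the 3 libraries of round 3. Without the ivermectin pair the male medians were 0.12 for the higher genes (72.9% of 1556 higher) and -0.21 for the lower genes (77.6% of 1226 lower). Without the female class as well they were 0.12 and -0.21. Both directions were kept under the other scalings, with medians of 0.17 and -0.32 by relative log expression (RLE) size factors and 0.16 and -0.33 with library totals alone. Of the 4 genes given above, WBGene00220555 was lower by a log2 difference of -1.07 (SE 0.28, edgeR adjusted p = 0.419) in day 1 males, WBGene00230923 of the female class stood at -3.18 (SE 1.36, adjusted p = 0.434), and the pair of higher genes stood at -0.06 (SE 0.16, adjusted p = 0.895) and 0.11 (SE 0.19, adjusted p = 0.837). WBGene00230923 had 84.9 CPM in the ivermectin male library of round 2 named above, and 0.884 to 1.92 CPM in the other 5 male libraries of the comparison.

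Males of day 7 showed the profile in 1 library of round 3 and its opposite in the others. In the ivermectin pair the genes higher in round 3 females had a median of 0.75 between round 3 and round 2, with 1453 of 1552 tested genes higher. The lower genes had a median of -0.48, with 1132 of 1234 lower. Of all 10095 genes tested, 4786 were higher in that pair. Set against the mean of rounds 1 and 2 of its group, the ivermectin round 3 library held 1520 of 1658 higher genes above. It held 1163 of 1301 lower genes below, while the median over all genes was -0.01. Its differences had a Pearson correlation of 0.713 with those of females across 9911 genes. Its 100 genes with most counts took 21.3% of counts, against 14.1% to 17.8% in the other 23 male libraries. In the control, diethylcarbamazine and albendazole pairs of day 7 males the higher genes instead had medians of -0.25, -0.46 and -0.63, and the lower genes 0.07, 0.12 and 0.06.

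With all 3 pairs, edgeR called 0 of 10095 genes between round 3 and round 2 in day 7 males (0%), and 54 had an unadjusted p under 0.05, where 505 would be expected. Without the ivermectin pair it called 598 genes lower (6.01% of 9946) and 5 higher. Of those 598 genes, 558 belonged to the group that is at least 2-fold higher in round 3 females and 0 to the lower group. That is 93.3% of the genes called and 36.5% of the 1530 members tested, in a group that made up 15.4% of all genes tested. With RLE size factors 643 of 699 lower genes were in that group, and with library totals 416 of 427. This fit rests on 4 libraries and was added after the data were seen. Those 558 genes were thus higher in round 3 of day 1 females and lower in round 3 of the control and diethylcarbamazine males of day 7.

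**Figure D5:**
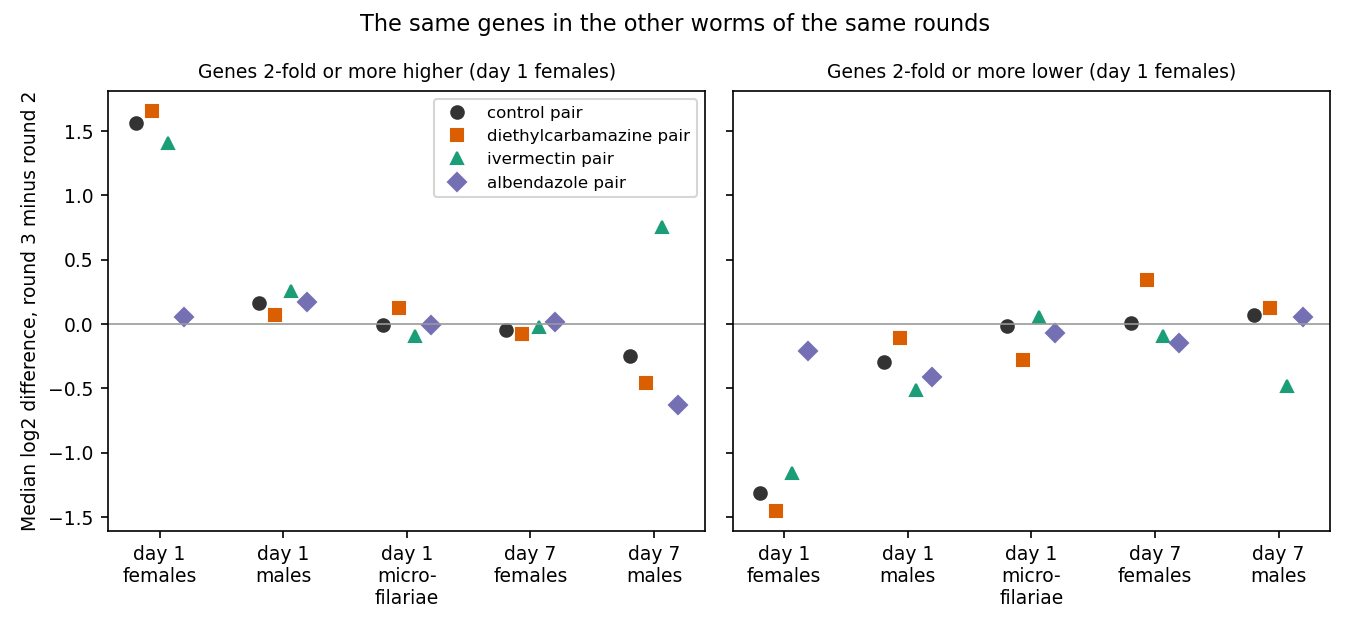
Median log2 difference between round 3 and round 2 of the genes at least 2-fold higher and at least 2-fold lower in round 3 day 1 females, in day 1 females and in the other stages and days, with 1 point per treatment pair. Day 1 males lie at 0.07 to 0.26 and -0.11 to -0.51, day 7 females within 0.08 of zero for the higher genes and from -0.15 (albendazole) to 0.34 (diethylcarbamazine) for the lower genes, and the ivermectin pair of day 7 males at 0.75 and -0.48.

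Microfilariae of day 1 differed between the same rounds in 255 genes higher (2.59% of 9831) and 260 lower (2.64%) by edgeR's quasi-likelihood test. Of these 255, 150 were among the genes called higher in females, which is 58.8% of the larval and 4.63% of the female list, beside 32.7% of all genes called higher in females, and 48 were called lower there. Of the 260 lower genes, 94 were called lower in females, 36.2% and 2.61% of the lists, and 46 higher. That share is at the background, since 36.3% of all genes were called lower in females. The larval counts moved with single pairs: without the control pair they were 36 and 101, without the diethylcarbamazine pair 475 and 477, and without the ivermectin pair 407 and 257.

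The study's own comparison in these worms, each drug against control, shares its libraries with the round 3 females. With all 12 day 1 female libraries and no replicate block, edgeR's quasi-likelihood test called 0 of 10081 genes for albendazole, diethylcarbamazine and ivermectin (0% each). Unadjusted p-values under 0.05 numbered 11, 85 and 37, where 504 would be expected, and DESeq2 called 0 in each. The biological coefficient of variation, the spread between libraries of a group beyond counting error, was 0.359 in this fit. Without the 3 round 3 libraries it was 0.205, and the unadjusted counts were 55, 281 and 159, with 0 genes called in each. With a replicate block it was 0.212 in all 12 libraries, with 0 genes called for each drug, and 0.111 without the 3 libraries. In the last of these fits the genes with an unadjusted p under 0.05 numbered 323 for albendazole, 901 for diethylcarbamazine and 672 for ivermectin, where 519 would be expected. In the blocked fit of all 12 libraries they numbered 219, 303 and 132, where 510 would be expected.

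The round 3 libraries also moved the drug estimates themselves, most for albendazole, which has no such library while the control group has 1. The genes at least 2-fold higher in round 3 had a median log2 difference of -0.57 between albendazole and control females with all 12 libraries, -0.34 with a replicate block and 0.04 without the 3 libraries. The lower genes had 0.22, 0.32 and -0.04. Both gene groups were chosen in part on the control round 3 library, which is in the control group here. The direction of the albendazole medians that include it therefore follows from that choice. For diethylcarbamazine, whose group holds 1 of the 3 libraries as the control group does, the higher genes had 0.22, 0.19 and 0.09, and for ivermectin -0.00, 0.03 and 0.05. Without the 3 libraries and with a replicate block, 1 of 10377 genes was called for ivermectin (0.00964%) and 0 for the other drugs. That gene, WBGene00235406, named after its value was seen, stood at 1510 and 173 CPM in ivermectin rounds 1 and 2 and at 233 and 38.0 CPM in the control libraries of those rounds. Its log2 difference was 2.48 (SE 0.29, edgeR adjusted p = 0.0446). In round 3 it stood at 99.7 CPM with ivermectin and 128 CPM in control, the other way round, and with all 12 libraries the log2 difference was 2.15 (SE 1.10, adjusted p = 1).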

How the data were processed

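RNA of whole worms was sequenced from strand-specific TruSeq libraries, per the labels' protocols. The authors deposited read counts by gene for each library, unscaled. The submitters' processing notes name the aligner TopHat2 2.0.14 and the counter HTSeq 0.6.1p1. Genome build, annotation and counting options are not given in the sources used here, and reads shared by near-identical genes could not be examined.

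Counts were analysed with R 4.3.3, edgeR 4.0.16 and DESeq2 1.42.0, and plotted with Python 3.11.15 and matplotlib 3.10.9. Genes were kept by filterByExpr (minimum count 10, minimum total 15) and libraries scaled by TMM. Round 3 was set against round 2 by edgeR's quasi-likelihood test with treatment as a block, in 6 libraries per stage and day, two-sided, with Benjamini-Hochberg adjustment over all genes tested and a threshold of 0.05. Drug comparisons used the 12 day 1 female libraries with 1 spread. Levels per library and values per treatment pair are CPM or log2 CPM with a prior count of 2, scaled over all 68 libraries. The members and gene groups were chosen with earlier results of these data known. Where the text names genes, it takes the 2 higher and 2 lower ones with the smallest p that were at least 2-fold different and did not overlap between rounds.

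The labels do not say that libraries of a group came from separate animals. In fits without a block, p-values measure the spread between these libraries. Each round comparison with a treatment block holds 1 library per treatment and round. Its p-values measure how unevenly the round difference runs over the treatments. They set 1 round against 1 round, so they do not measure how rounds in general vary. Drug fits with a replicate block likewise measure how unevenly drug differences run over the rounds. None of 28 pairs among the 8 libraries agreed within sampling noise (smallest chi-square per degree of freedom 7.49). Same-numbered day 1 female libraries of different treatments come from 1 round, per the series' design text. Their deviations from the group means correlated at 0.613 to 0.889 without albendazole and at 0.0647 to 0.522 with it. Differently numbered libraries of different treatments gave -0.758 to 0.379 and -0.415 to 0.161. With albendazole the ranges thus overlapped. Each group mean other than that of albendazole includes a library that stands apart. That library enters the deviation of every library of its group, so without albendazole these values cannot show which libraries share a round.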

Additional observations from a re-analysis of the deposited data

How the results depend on the processing

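In day 1 females the counts of genes higher and lower in round 3 were within 1.5 times the main counts under RLE size factors, DESeq2, no filter on low counts, no block by treatment, replicate 1 added or as the reference, and each treatment pair left out. They moved with library totals only (1522 higher, 6544 lower) and with the albendazole pair added (1738 and 1791). The 4 named genes kept direction and call in all alternatives run.

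In day 1 males, DESeq2 called 12 genes higher and 52 lower and replicate 1 as the reference 1 and 4, against 0. In day 7 females replicate 1 as the reference gave 1541 and 1460, DESeq2 gave 10 lower, and no filter gave 1 lower. Leaving out a treatment pair gave 0 to 63 higher and 0 to 25 lower there, and 0 to 5 and 0 to 598 in day 7 males. In day 1 microfilariae the counts were 141 and 398 with library totals, 874 and 913 with albendazole added, 54 and 17 with replicate 1 added, 426 and 160 with replicate 1 as the reference, 122 lower with DESeq2, and 36 to 475 and 101 to 477 with a pair left out.

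The median of all genes was -0.01 with RLE size factors and -0.80 with library totals. With library totals the medians were -1.17 (female class), -1.08 (male), -0.35 (microfilaria), -0.40 (female and microfilaria), -0.49 (male and microfilaria), -1.33 (both adults) and -0.75 (no class). With RLE they were -0.38 (female), -0.30 (male), -0.54 (both adults) and 0.035 (no class). Classes at 16-fold gave -0.51 (female), 0.76 (microfilaria) and -0.80 (both adults), and at 2-fold -0.36 (female) and -0.52 (both adults). Replicate 1 as the reference gave -0.37 (female), -0.41 (both adults), 0.14 (female and microfilaria) and 0.13 (male and microfilaria). With a pair left out the female class ran from -0.47 to -0.38 the male class from -0.37 to -0.30, the microfilaria class from 0.19 to 0.57, and the male and microfilaria class from -0.02 to 0.26, the lowest of both larval ranges without the ivermectin pair. The cause of these moves was not tested.

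The drug comparisons called 0 genes in every alternative, the replicate block included (0 for each drug), except ivermectin with the 3 round 3 libraries left out and a replicate block (1). Leaving out the 3 libraries leaves 2 per group other than albendazole, and with a pair left out the round comparison rests on 4 libraries.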
